A study of Mus musculus with 6 samples.

Results

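The genes described here are 10 genes of cell proliferation and of the entry into the cell cycle, found by symbol among the 16411 genes listed in the count table: Mki67, Top2a, Cdk1, Birc5, Pcna, the D cyclins Ccnd1, Ccnd2 and Ccnd3, and the cyclin-dependent kinase inhibitors Cdkn1b and Cdkn1c. UMIs (unique molecular identifiers, that is, counted molecules) of 9 of the 10 were found in the cells analysed. The cells were dissociated from the hypothalami of male mice homozygous for the ob mutation (ob/ob), which lack leptin and are obese and diabetic. Each mouse was 11 weeks old, received 3 µg of FGF1 R50E, a mutant form of fibroblast growth factor 1, by intracerebroventricular injection, and was killed 5 days later. They were profiled with the 10x Genomics Chromium 3′ v2 chemistry, with 1 mouse per sample. The labels name 6 such samples, and cells of 4 of them (mice 3, 4, 30 and 34) were analysed. All mice carried the same genotype and treatment, so the comparisons below are between cell types of the same mice, and no effect of FGF1 R50E was estimated.

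The D cyclins bind and activate the kinases that inactivate the retinoblastoma proteins, which releases E2F factors and starts DNA replication. Cdkn1b and Cdkn1c encode inhibitors of cyclin-dependent kinases that hold cells out of the cycle. Pcna encodes the sliding clamp of DNA polymerases and serves repair as well as replication, while Mki67, Top2a, Cdk1 and Birc5 are transcribed mainly from S phase to mitosis and serve as markers of dividing cells. In the adult brain, oligodendrocyte precursor cells (OPCs) are known as the main population that keeps dividing, whereas mature oligodendrocytes are known as postmitotic. D cyclins are also used by cells that do not divide.

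The table held 20151 cells of the 4 mice, between 3005 and 7386 per mouse, with 3299971 to 8856079 UMIs per mouse and a median of 909 to 1066 UMIs per cell. The authors' labels gave 9 cell types, and in each of them the summed level of its own defining markers was higher than in any of the other types. The types counted 5909 astrocytes, 4490 tanycytes, 1530 ependymal cells, 1261 OPCs, 681 committed oligodendrocyte precursors, 4566 oligodendrocytes, 1266 endothelial cells, 380 microglia and 68 vascular leptomeningeal cells. The last type had 6 to 44 cells per mouse and was not tested. Cell barcodes shared between libraries numbered 194, held by 391 cells. Within a library, 1630 to 2414 listed genes were at 0 in every cell, whereas only 19 to 71 genes had UMIs in exactly 1 cell, and a filter on genes in each library was not tested as the source of these zeros. Cdk1 was listed at 0 in every cell of all 4 mice, and Top2a was listed at 0 in every cell of mice 4 and 34. No upper limit was derived for these zeros, and Top2a values below refer to mice 3 and 30. In sums over cells of a type, fewer expressing cells and fewer molecules per cell cannot be told apart.

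Promoter windows in the RefSeq table of build GRCm38.p6 matched 7 of the 10 genes. The 250 bases before the start of transcription are shown for Mki67, Top2a and Birc5, because UMIs of these 3 genes were found together in the same OPCs. Capitals mark the CHR element (TTTGAA, or TTCAAA on the other strand) and the CCAAT box (CCAAT, or ATTGG on the other strand), both known from genes of the G2/M phase. The Mki67 window lies at chr7:135716380-135716629 on the minus strand, the Top2a window at chr11:99024190-99024439 on the minus strand, and the Birc5 window at chr11:117848987-117849236 on the plus strand. All are written 5′ to 3′ in the direction of transcription.

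Mki67: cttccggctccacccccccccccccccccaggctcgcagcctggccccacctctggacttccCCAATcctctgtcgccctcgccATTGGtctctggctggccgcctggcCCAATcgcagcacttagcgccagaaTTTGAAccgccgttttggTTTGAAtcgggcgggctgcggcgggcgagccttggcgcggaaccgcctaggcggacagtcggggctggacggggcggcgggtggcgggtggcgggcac
Top2a: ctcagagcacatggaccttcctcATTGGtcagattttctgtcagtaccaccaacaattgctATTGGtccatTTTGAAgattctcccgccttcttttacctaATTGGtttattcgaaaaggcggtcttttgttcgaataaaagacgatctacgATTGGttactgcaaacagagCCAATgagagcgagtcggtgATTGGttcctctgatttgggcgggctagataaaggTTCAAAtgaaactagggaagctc
Birc5: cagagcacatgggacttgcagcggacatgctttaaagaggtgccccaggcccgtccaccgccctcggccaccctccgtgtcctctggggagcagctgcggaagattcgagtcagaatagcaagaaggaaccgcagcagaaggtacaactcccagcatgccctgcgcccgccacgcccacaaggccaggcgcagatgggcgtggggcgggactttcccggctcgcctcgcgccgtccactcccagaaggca

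The Mki67 window held 2 CHR elements, 116 and 98 bases before the start, and 3 CCAAT boxes. In the Top2a window, 2 CHR elements lay 179 and 23 bases before the start, among 6 CCAAT boxes. Neither motif was present in the Birc5 window as letters. The Cdk1 window, which is not printed because the gene was listed at 0, held 2 CHR elements and 3 CCAAT boxes. Among all 32851 windows of this length, 16.0% held a CHR element, 33.8% held a CCAAT box and 5.55% held both, so these matches describe the windows and do not show binding.

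Mki67, which encodes the Ki-67 protein of the mitotic chromosome surface (chromosome 7, 135689784 to 135716361, GRCm38), was found in a larger pooled share of OPCs (1.59%, 95% Clopper-Pearson interval 0.971 to 2.44) than of any other type, and the positive cells were few. A Mki67 UMI was present in 5 of 386 OPCs of mouse 3 (1.3%), 5 of 242 of mouse 4 (2.07%), 7 of 267 of mouse 30 (2.62%) and 3 of 366 of mouse 34 (0.820%). In oligodendrocytes the shares were 0.480%, 0.231%, 0.846% and 0.385% in the same order of mice. The share was higher in OPCs in 4 of 4 mice, although the highest oligodendrocyte value lay above the lowest OPC value. The means were 1.70% ± 0.80 for OPCs and 0.485% ± 0.261 for oligodendrocytes (SD, n = 4). A two-sided exact sign-flip permutation test over the 4 mice gave p = 0.13, which is the smallest p that 4 mice allow. The median depth was 1020 UMIs per OPC and 1136 UMIs per oligodendrocyte. After every cell was thinned to 500 UMIs, the mean shares were 0.927% ± 0.671 and 0.196% ± 0.118.

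Other types held a Mki67 UMI in 3 of 681 committed precursors, 2 of 4490 tanycytes, 2 of 5909 astrocytes, 1 of 1266 endothelial cells and 1 of 380 microglia. No ependymal cell had one, and 0 of 1530 cells allows, at 3 counts, a share of cells with a Mki67 UMI of up to 0.196%. Among the 68 vascular leptomeningeal cells none had one either, which allows up to 4.41% in the same sense. At this depth a cell can express the gene without a UMI, so these values do not limit the share of expressing cells. OPCs were 6.26% of the cells and held 5.72% of all UMIs, but they held 32 of the 61 Mki67 UMIs (52.5%). These limits and the intervals below cover counting error only.

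Top2a encodes DNA topoisomerase II alpha, which untangles replicated chromosomes (chromosome 11, 98992943 to 99024189). In mouse 3 it was found in 8 of 386 OPCs with 24 UMIs, and in mouse 30 in 6 of 267 OPCs with 12 UMIs. In all other types of these 2 mice together, Top2a had 7 UMIs, of which 2 were in oligodendrocytes of mouse 30. The OPC level, as UMIs scaled to a total of 1000000 over the summed cells (CPM), was 52.5 in mouse 3 and 50.9 CPM in mouse 30, against 0 and 4.11 CPM in oligodendrocytes. OPCs thus held 36 of 43 Top2a UMIs (83.7%).

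Birc5, which encodes survivin, a subunit of the chromosomal passenger complex (chromosome 11, 117849251 to 117855743), was listed above 0 in all 4 mice. Its OPC level was 6.57 CPM in mouse 3, 28.7 in mouse 4, 38.2 in mouse 30 and 9.18 in mouse 34. In oligodendrocytes it was 0 in mice 3, 4 and 30 and 1.63 CPM in mouse 34, so the groups did not overlap. The means were 20.7 ± 15.3 CPM and 0.406 ± 0.813 CPM (SD, n = 4), with 23 and 3 UMIs behind them. No Birc5 UMI was found in ependymal cells, endothelial cells or microglia. Mki67, Top2a and Birc5 fell below the filter on low counts in every comparison between cell types, so their tests come from the edgeR fit without that filter, in which 3054 of 14797 genes were called between OPCs and oligodendrocytes (20.6%), that is, had an adjusted p under 0.05 and a difference of over 1 on the log2 scale. There Mki67 was higher in OPCs by a log2 fold change of 2.02 (adjusted p = 4.26e-05), Top2a by 5.13 (6.28e-12) and Birc5 by 3.98 (2.99e-06), where Top2a rests on mice 3 and 30. DESeq2 also called Mki67 (adjusted p = 0.0122) and Birc5 (5.38e-04) but not Top2a (0.588).

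**Figure D1:**
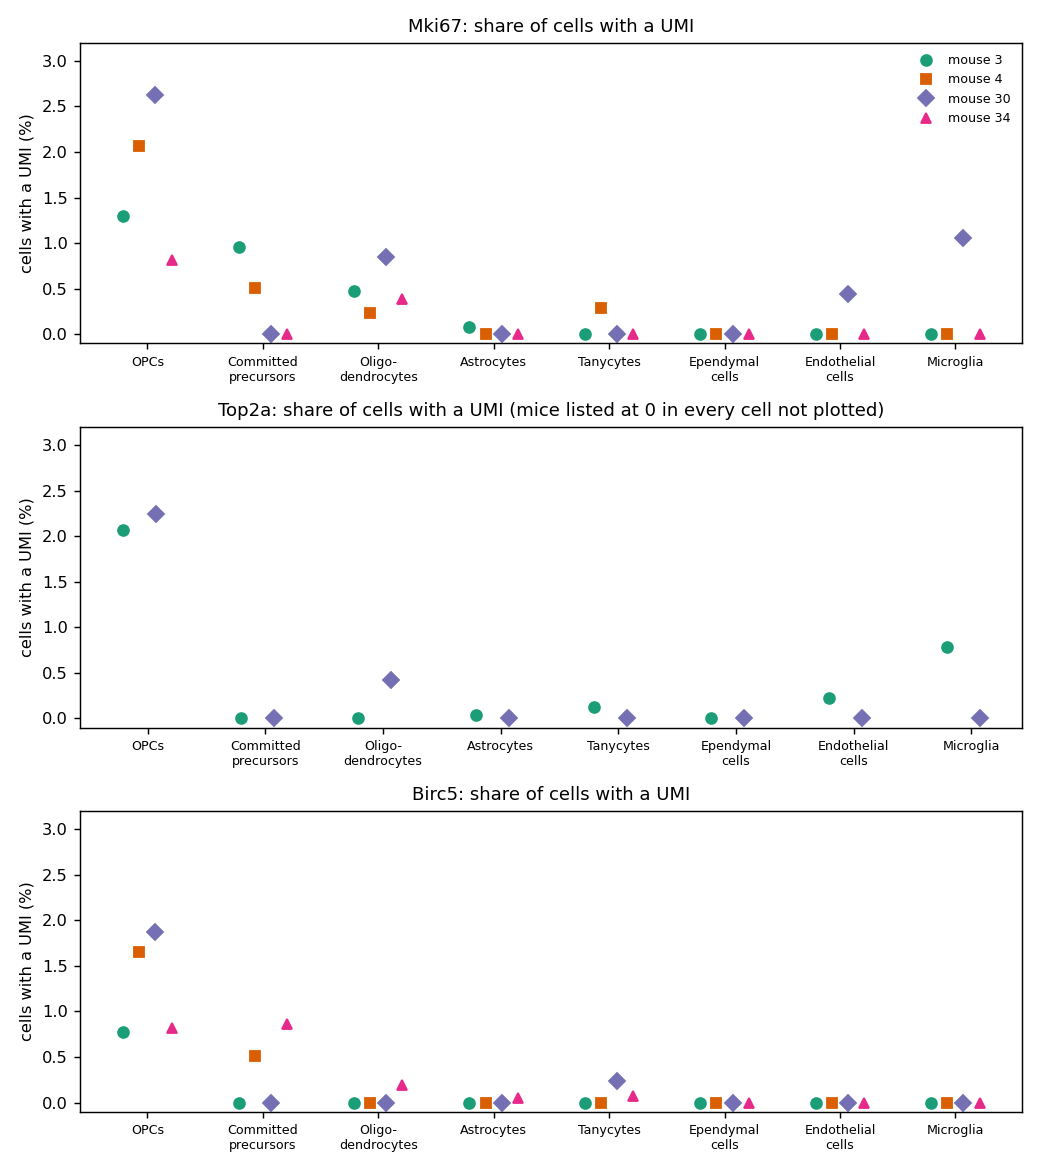
Share of cells with at least 1 UMI (percent, y axis, not thinned) of Mki67, Top2a and Birc5 in 8 cell types (x axis), with 1 symbol per mouse. The Mki67 share of OPCs lies between 0.820% and 2.62%, and Top2a is shown for mice 3 and 30 only, since it was listed at 0 in every cell of the other two.

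UMIs of these genes were found together in the same OPCs, and together in no cell of another type. At least 2 of Mki67, Top2a and Birc5 were found in 12 of 1261 OPCs (0.952%), namely 5 cells of mouse 3, 2 of mouse 4, 5 of mouse 30 and 0 of mouse 34. Of the 18890 cells of the other types, 0 held 2 of the genes, and in mice 3 and 30, where all 3 genes were listed above 0, 0 of 9738 such cells did. Cells that express both genes of a pair without a UMI of each are not seen in these counts. OPCs with a Mki67 or Top2a UMI, called positive OPCs from here on, numbered 27, of which 7 held both genes and 8 held Birc5. The highest counts in a positive OPC were 5 Mki67 UMIs and 8 Top2a UMIs.

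Oligodendrocytes with a UMI of Mki67 or Top2a, called positive in the same sense of holding a UMI, numbered 22 of 4566, with 8, 2, 6 and 6 cells in mice 3, 4, 30 and 34, and each held a single UMI: 20 of Mki67 and 2 of Top2a. Mki67 made up 90.9% of the UMIs of both genes in oligodendrocytes (95% Clopper-Pearson interval 70.8 to 98.9) and 47.1% in OPCs (34.8 to 59.6). Because Top2a was listed at 0 in mice 4 and 34, the ratio is best read in mice 3 and 30, where the counts were 12 Mki67 and 2 Top2a UMIs in oligodendrocytes against 18 and 36 in OPCs. None of the 22 positive oligodendrocytes held Birc5, and 1 held Pcna. Their summed OPC marker level was 91.3 CPM (range over mice 0 to 470.1, with C1ql1 and Lhfpl3 at 0), beside 26.3 CPM in the other oligodendrocytes (17.8 to 49.4) and 2460 CPM in OPCs, and their oligodendrocyte marker level was 9254 CPM against 6856 CPM. Their tanycyte markers summed to 213 CPM (0 to 510, with Rax, Crym and Vim at 0) against 48.1 CPM (35.5 to 93.8). Their median depth was 1370 against 1134 UMIs, and 2 of 22 (9.09%) against 138 of 4544 (3.04%) were among the 5% of highest doublet scores. The part of these differences in the Mki67 and Top2a UMIs was not tested. Free RNA in droplets can give a single UMI in a cell that does not express the gene, and its level was not estimated here. In oligodendrocytes the pooled share of cells with a Mki67 UMI was 0.438% (95% Clopper-Pearson interval 0.268 to 0.676), beside 0.0445% of tanycytes (0.00539 to 0.161) at a median depth of 1143 UMIs and 0.0338% of astrocytes (0.00410 to 0.122) at 851 UMIs. The intervals did not overlap, but over the mice the oligodendrocyte share was higher than that of tanycytes in 3 of 4 (two-sided exact sign-flip permutation p = 0.25), and committed precursors (0.441%, 0.0909 to 1.28) overlapped with oligodendrocytes.

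The second question was what else positive OPCs expressed. Positive OPCs carried the OPC markers at the level of the other OPCs (2547 CPM, range over mice 2041 to 3250, against 2457 CPM, range 2421 to 2615), and the 4 oligodendrocyte markers summed to 271 CPM (105 to 383) against 469 CPM (389 to 605), with Mog, Mag and Opalin at 0. Ependymal markers summed to 135 CPM (0 to 211, with Foxj1 and Tmem212 at 0) against 55.4 CPM (39.5 to 92.6), and tanycyte markers to 190 CPM (0 to 948, with Rax and Col23a1 at 0) against 145 CPM (83.6 to 312). Neuron markers summed to 108 CPM (0 to 211, with Rbfox3 at 0) against 304 CPM (226 to 396), without overlap. Markers of mural cells of the vessel wall summed to 0 CPM against 78.6 CPM (45.3 to 181). Positive OPCs were deeper (median 1334 against 1017.5 UMIs per cell) and had a higher deposited doublet score (median 0.0450 against 0.0251), with 3 of 27 among the 5% of highest scores. The part of depth, doublets and these markers in the differences below was not tested beyond the alternatives given. Positive and negative cells were summed per mouse in mice 3, 4 and 30, which had 10, 5 and 9 positive OPCs. Mouse 34 had 3 and was left out. Of 2281 genes tested with edgeR, 68 were called (2.98%), by the same limits, in either direction. Of these, 51 were higher in positive cells (2.24%) and 17 lower (0.745%), and the median log2 fold change of all genes was -0.24. Mki67 and Top2a chose the cells and were not tested. Of the other 8 members, 4 passed the filter on low counts and 2 were called, Birc5 and Pcna. Both passed the filter through the positive cells alone, so their number supports no direction, and the edgeR fit without the filter is given for them, in which 277 of 13605 genes were called (2.04%), 29 higher (0.213%) and 248 lower (1.82%).

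Pcna (chromosome 2, 132249162 to 132253314) was found in 3 of 10, 2 of 5 and 3 of 9 positive OPCs of mice 3, 4 and 30, against 4.52%, 4.22% and 5.43% of the negative ones. Its level was 191, 464 and 527 CPM in positive cells and 40.8, 42.1 and 70.8 CPM in negative cells, with no overlap. Without the filter the edgeR log2 fold change was 1.66 (adjusted p = 0.333), so Pcna was not called there, and with the filter it was 2.52 ± 0.55 (SE, n = 3 mice), from 11 and 44 UMIs. It was not called with DESeq2 (adjusted p = 0.0564) or without mouse 30 (0.0963) either. In 3 of the 13 alternatives Pcna fell below the filter and had no call. These were thinned sums, cells of at least 1000 UMIs and all mice with 2 or more positive cells.

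Birc5 had 2, 5 and 8 UMIs in the positive OPCs of mice 3, 4 and 30 and 1, 2 and 1 UMIs in the far more numerous negative ones. Pooled over these mice it stood at 474 against 4.42 CPM, a ratio of 107 (95% counting interval 34.2 to 443.9). The edgeR fit without the filter gave a log2 fold change of 5.29 (adjusted p = 9.84e-06). In 7 of the 13 alternatives Birc5 fell below the filter and had no call, namely with thinned sums, with cells chosen by Mki67 alone or by Top2a alone, with cells of at least 1000 UMIs, with all mice of 2 or more positive cells, without mouse 4 and without mouse 30. In mouse 34, left out of the test, the 3 positive OPCs held no UMI of Birc5 or Pcna, and 3 of the 363 negative OPCs held Birc5.

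The D cyclins showed no called difference between positive and negative OPCs. Ccnd1 was at 638, 774 and 422 CPM in positive cells and at 433, 476 and 394 CPM in negative cells of mice 3, 4 and 30 (log2 fold change 0.21 ± 0.38, adjusted p = 0.877). The Ccnd2 levels were 255, 155 and 211 CPM against 99.8, 139 and 119 CPM (0.67 ± 0.73, adjusted p = 0.783). Both were higher in positive cells in 3 of 3 mice, but the pooled ratios of 1.38 (0.824 to 2.19) and 1.93 (0.755 to 4.11) include 1. Ccnd3 had 3 UMIs and Cdkn1c 2 UMIs in the positive cells of these mice, and neither was tested. Cdkn1b had 0 UMIs in the 24 positive OPCs of mice 3, 4 and 30 and 34 UMIs in the negative ones (37.6 CPM). The interval of the ratio reaches 3.28, so a lower level was not detectable at this depth, and the only Cdkn1b UMI of a positive OPC was in mouse 34.

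Genes of the cycle beyond the 10 were followed in 4 lists of 91 genes, of which 87 were listed. Of the 27 listed G2/M genes with a UMI in OPCs, 25 had a higher CPM in positive than in negative cells (92.6%), as did 22 of 26 S phase genes (84.6%), 10 of 18 genes of the G1 machinery (55.6%) and 3 of 4 inhibitors. Among all 13953 genes with a UMI in OPCs the share was 37.2%. These counts pool all 4 mice, and 1 UMI in the positive cells equals 27.1 CPM, so a higher CPM can rest on 1 UMI. Positive cells held a UMI of 26 of the 27 G2/M genes and 22 of the 26 S phase genes, beside 7667 of all 13953 genes. Hmgb2, a chromatin protein of dividing cells, had 47, 12 and 20 UMIs in the positive cells of mice 3, 4 and 30 and 29, 27 and 30 in the negative ones (log2 fold change 3.52 and adjusted p = 2.63e-23 in edgeR without the filter, as for the next genes). Cenpf, a kinetochore protein, had 6, 7 and 4 against 4, 6 and 3 UMIs (4.04, adjusted p = 1.94e-05). Cks2, a subunit of cyclin-dependent kinases, had 6, 5 and 3 against 4, 1 and 4 UMIs (4.26, adjusted p = 1.26e-04). Rrm2, the small subunit of ribonucleotide reductase of the S phase list, had 8, 3 and 4 against 6, 1 and 1 UMIs (4.60, adjusted p = 2.18e-05), and Skp2, which targets Cdkn1b protein for degradation, had 3, 3 and 2 against 7, 2 and 3 UMIs (3.10, adjusted p = 0.0923, not called). All 5 had a higher CPM in the positive cells of 3 of 3 mice. By list, 6 of 6 G2/M genes tested (with Racgap1, Smc2 and Smc4), 1 of 2 S phase genes, 1 of 2 genes of the G1 machinery and 0 of 1 inhibitors were called higher with the filter. All 8 of these passed it through the positive cells alone, so their number is no support for a direction, and 7 of the 8 were called without it, the exception being Skp2.

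**Figure D2:**
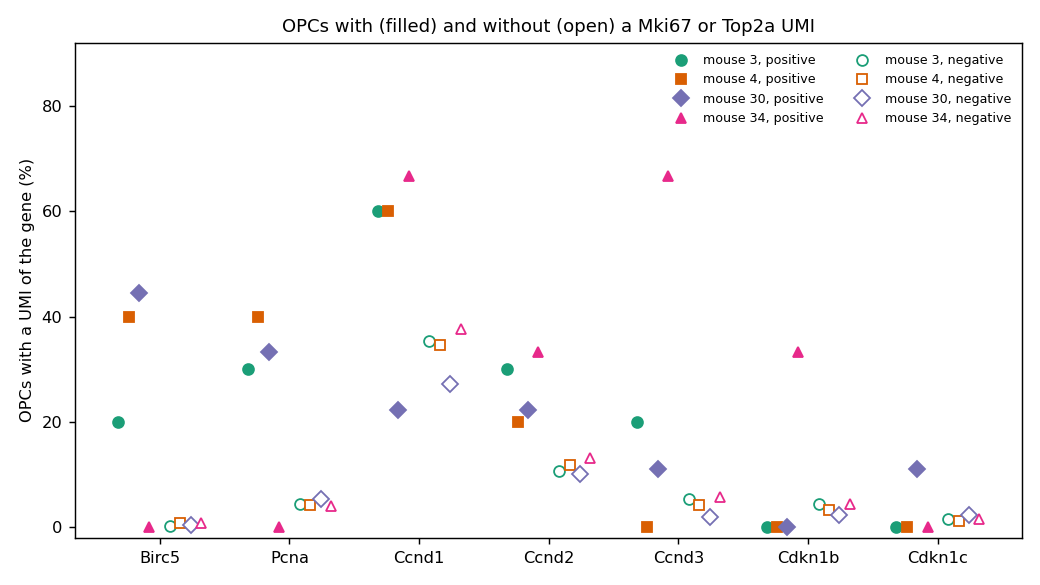
Share of OPCs with a UMI (percent, y axis) of 7 genes (x axis) among OPCs with a Mki67 or Top2a UMI (filled symbols) and without one (open symbols), with 1 symbol per mouse. The filled Birc5 symbols of mice 3, 4 and 30 lie at 20% to 44.4% and the open ones under 1%, and each filled symbol rests on 3 to 10 cells.

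In positive oligodendrocytes of mice 3, 30 and 34, the same comparison called 12 of 3289 genes (0.365%), 2 of them higher (0.0608%) and 10 lower (0.304%), and none of the members. Only Cdkn1b passed the filter there, with 0 UMIs in 20 positive cells and 240 UMIs in the negative ones. No gene of the 4 lists was called. The log2 fold change of Cdkn1b was -8.40 ± 5.04 (SE, n = 3 mice, adjusted p = 0.613 in edgeR). In mice 3, 30 and 34 the positive cells held 12001, 6381 and 11765 UMIs of all genes, against 2307176, 479668 and 1833456 in the negative ones. A lower Cdkn1b level was therefore not detectable at this depth.

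Ccnd1, the D cyclin known for its induction by growth factor signalling (chromosome 7, 144929931 to 144939925), stood at 440, 484, 395 and 459 CPM in the OPCs of mice 3, 4, 30 and 34. In microglia it was at 52.5, 89.4, 193 and 50.5 CPM, with 4 to 19 UMIs behind each value. The OPC range did not overlap that of microglia, and OPCs held 612 of 1169 Ccnd1 UMIs (52.4%). A Ccnd1 UMI was found in 435 of 1261 OPCs (34.5%), of which 13 were positive (2.99%), beside 27 positive among all 1261 OPCs (2.14%). Endothelial cells followed at 62.7 ± 11.8 CPM, ependymal cells at 43.1 ± 3.85, tanycytes at 25.3 ± 4.45, oligodendrocytes at 18.5 ± 6.97 and astrocytes at 15.2 ± 5.35 (SD, n = 4). Microglia and endothelial cells overlapped, endothelial and ependymal cells did not, ependymal cells and tanycytes did not, and from tanycytes on the neighbours overlapped. Committed precursors, the stage between OPCs and oligodendrocytes, held 8 Ccnd1 UMIs in all, at 4.01, 6.79, 19.1 and 0 CPM.

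Ccnd2 (chromosome 6, 127125162 to 127152193) had its highest levels along the ventricle. Ependymal cells, the ciliated lining of the ventricle, stood at 293, 346, 361 and 290 CPM in mice 3, 4, 30 and 34. Tanycytes, the radial-glia-like cells of the floor of the third ventricle, stood at 248, 208, 241 and 236 CPM. These ranges did not overlap, and tanycytes lay above the next type, endothelial cells at 134 ± 36.1 CPM, in every mouse. OPCs at 123 ± 14.1 CPM overlapped with endothelial cells, and lay above astrocytes without overlap (105 to 139 CPM against at most 39.8 CPM). Astrocytes (28.2 ± 8.57), committed precursors (23.4 ± 7.34), microglia (20.4 ± 22.2) and oligodendrocytes (15.4 ± 5.06) each overlapped with the next in order. Shares of cells with a Ccnd2 UMI were 32.0% of ependymal cells and 23.4% of tanycytes at median depths of 1131 and 1143 UMIs, whereas Mki67 or Top2a was found in 0 of 1530 and 4 of 4490 of them.

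Ccnd3 (chromosome 17, 47505051 to 47599691) varied less. Endothelial cells had 73.6, 86.7, 125 and 83.4 CPM, and astrocytes 61.6, 50.1, 84.1 and 47.0 CPM, so the ranges overlapped. Tanycytes (53.1 ± 6.14), ependymal cells (46.4 ± 12.9), OPCs (43.5 ± 13.5) and microglia (39.7 ± 25.4) followed with overlapping ranges. Oligodendrocytes (18.8 ± 7.94) and committed precursors (14.4 ± 5.18) were lowest. Values of vascular leptomeningeal cells are left out of these orders, since 3 of the 4 sums held 6 or 12 cells.

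**Figure D3:**
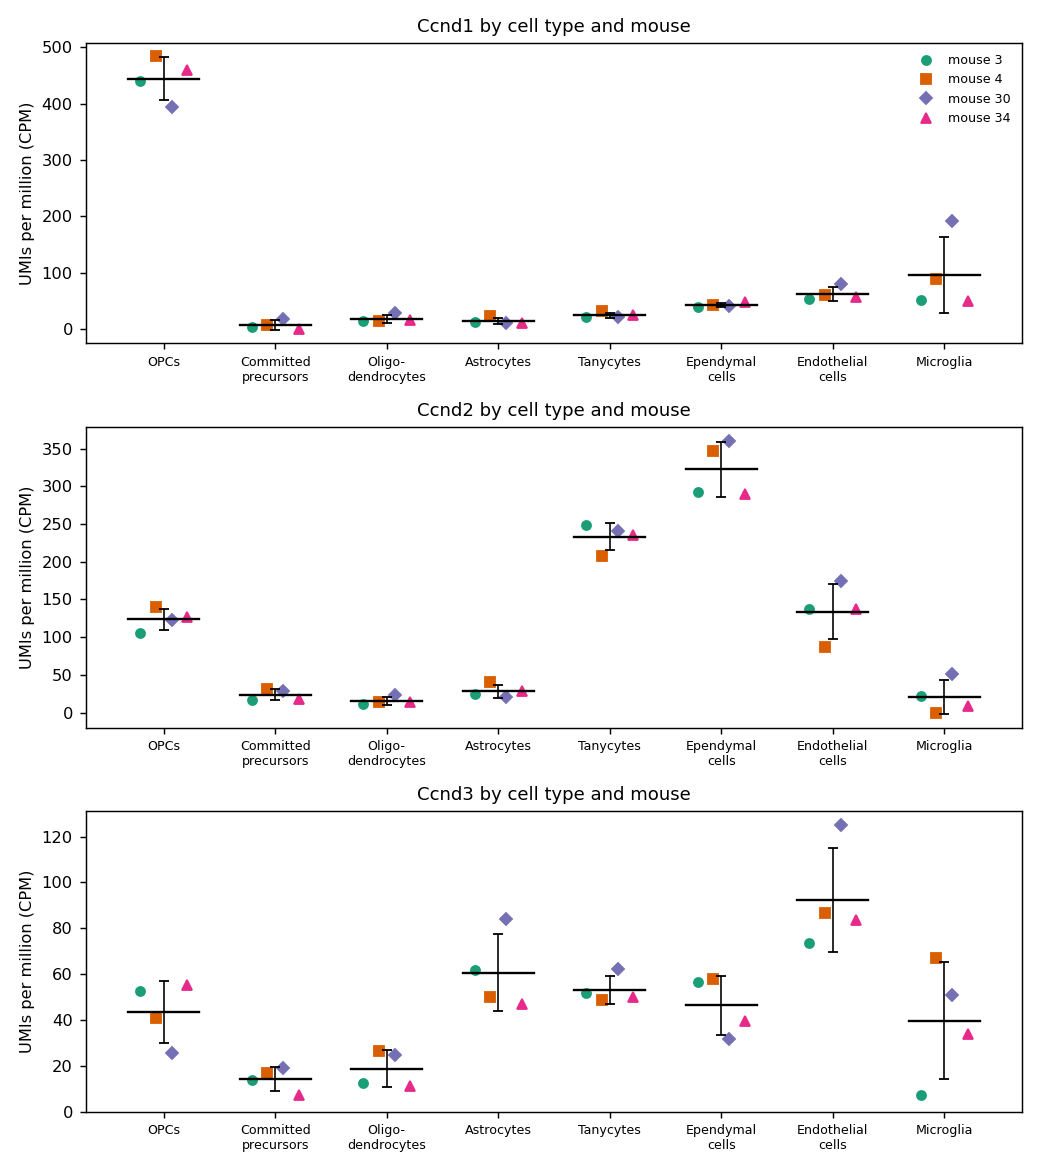
Levels of Ccnd1, Ccnd2 and Ccnd3 (CPM, y axis, each panel with its own scale) in 8 cell types (x axis), with 1 symbol per mouse, a line at the mean and bars of 1 SD (n = 4). Ccnd1 in OPCs lies at 395 to 484 CPM above every other type, and Ccnd2 in ependymal cells at 290 to 361 CPM above tanycytes at 208 to 248 CPM.

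Cdkn1b, the inhibitor known from quiescent and differentiating cells (chromosome 6, 134920401 to 134925513), had overlapping levels in neighbouring types. Its mean levels lay between 24.2 ± 17.8 CPM in microglia and 56.9 ± 10.3 CPM in tanycytes (SD, n = 4), and every type overlapped with the next in order. Oligodendrocytes stood at 51.3, 41.7, 63.8 and 48.8 CPM and OPCs at 41.6, 36.9, 25.5 and 41.3 CPM in mice 3, 4, 30 and 34. OPCs were thus lower in 4 of 4 mice, with ranges that just failed to meet.

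Cdkn1c, an imprinted inhibitor (chromosome 7, 143458339 to 143461050), was scarcer and more restricted. Endothelial cells had 49.7, 30.3, 49.3 and 54.0 CPM, committed precursors 12.0, 27.2, 43.1 and 32.6 CPM, and OPCs 13.1, 12.3, 38.2 and 13.8 CPM. These neighbours overlapped. Tanycytes (8.12 ± 3.53), oligodendrocytes (4.58 ± 1.77), ependymal cells (3.80 ± 1.72) and astrocytes (3.64 ± 2.35) had lower means, and microglia had 1 UMI in all. Committed precursors exceeded oligodendrocytes in 4 of 4 mice, without overlap, with 32 and 26 UMIs and a two-sided exact sign-flip permutation p of 0.13, the smallest possible.

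Pcna was detected in every type, with means from 21.0 ± 8.56 CPM in ependymal cells to 56.3 ± 22.9 CPM in OPCs, and every type overlapped with the next. OPCs stood at 46.0, 53.3, 89.2 and 36.7 CPM and oligodendrocytes at 35.8, 40.7, 57.6 and 34.7 CPM, higher in OPCs in 4 of 4 mice but with overlap.

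**Figure D4:**
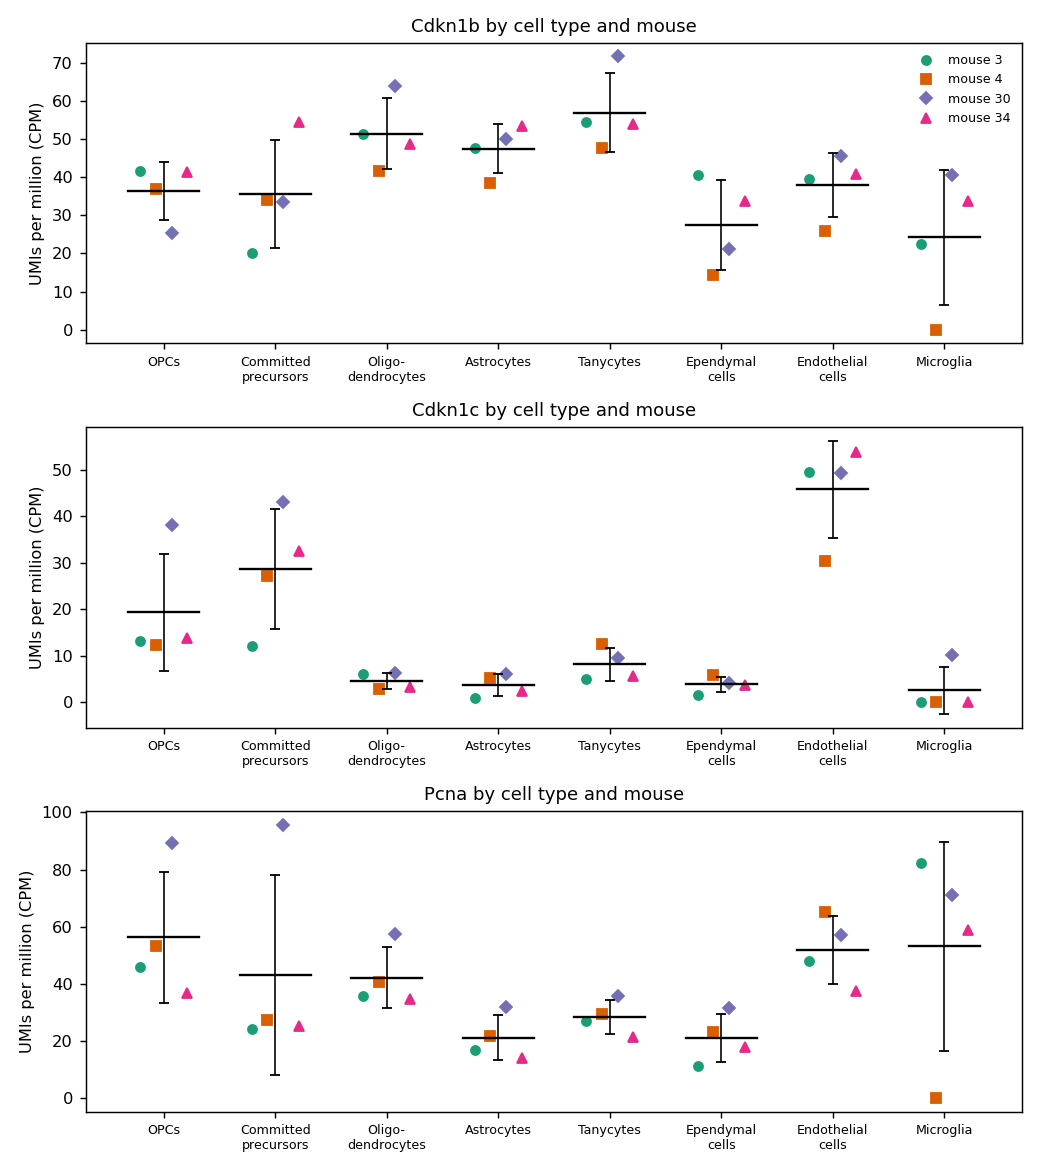
Levels of Cdkn1b, Cdkn1c and Pcna (CPM, y axis, each panel with its own scale) in 8 cell types (x axis), with 1 symbol per mouse, a line at the mean and bars of 1 SD (n = 4). Cdkn1c is highest in endothelial cells at 30.3 to 54.0 CPM, while Cdkn1b and Pcna overlap between neighbouring types.

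Along the oligodendrocyte lineage, Ccnd1 and Ccnd2 were higher in OPCs than in committed precursors and than in oligodendrocytes. Between OPCs and oligodendrocytes, 1820 of 6497 genes were called by edgeR (28.0%), of which 989 were higher in OPCs (15.2%). Of the 10 members, 5 passed the filter on low counts and 3 were called, all higher in OPCs. Over the 7 comparisons between types, 9 of the 13 calls of members were of genes that passed the filter through the higher group alone, so these counts support no direction, and 13 of the 13 were also called in the same direction without the filter. Among all genes, the fit without the filter called 19.0% between tanycytes and astrocytes, 16.7% between tanycytes and ependymal cells, 26.3% between endothelial cells and astrocytes and 19.9% between microglia and astrocytes. Of the 42 calls of list genes given below, 30 were of genes that passed the filter through the higher group alone, and 39 were also called in the same direction without it, the exceptions being Rfc2 between OPCs and committed precursors, Pola1 in tanycytes and Slbp in microglia. Between OPCs and oligodendrocytes, the log2 fold changes with the filter were 4.38 ± 0.14 for Ccnd1 (SE, n = 4 mice, adjusted p = 9.75e-57), 2.73 ± 0.21 for Ccnd2 (6.86e-24) and 1.16 ± 0.27 for Ccnd3 (1.06e-04). All 3 genes passed the filter through OPCs alone. In the edgeR fit without it, their log2 fold changes were 4.24, 2.60 and 1.02 (adjusted p = 1.15e-181, 2.15e-34 and 4.25e-04). The Ccnd3 call was lost without mouse 3 (log2 fold change 0.90), without mouse 34 (0.82) and with DESeq2 (0.89, adjusted p = 0.177). Cdkn1b was lower in OPCs by a log2 fold change of -0.78 ± 0.22 (adjusted p = 0.00132), short of the limit of 1, which it passed with sums thinned to equal totals (-1.25). Pcna was not called (-0.01 ± 0.21, adjusted p = 0.964), although its CPM was higher in OPCs in 4 of 4 mice. Without the filter, Cdkn1c was called higher in OPCs as well (1.32, adjusted p = 0.0178), but not with DESeq2 (0.113). The normalization to comparable totals by TMM moved OPCs against oligodendrocytes by 0.37 on the log2 scale relative to CPM. The authors' labels presumably used these same UMIs, so calls between types describe the types, and p-values measure only the spread between these mice.

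OPCs and committed precursors differed in 1172 of 4879 genes (24.0%), 644 of them higher in OPCs (13.2%) and 528 lower (10.8%). Of 4 members tested, Ccnd1 (6.04 ± 0.26, adjusted p = 1.07e-38) and Ccnd2 (2.41 ± 0.25, adjusted p = 1.53e-14) were called higher in OPCs. The Ccnd1 difference rests on 612 against 8 UMIs. Ccnd1 and Ccnd2 passed the filter through OPCs alone. In the edgeR fit without it, their log2 fold changes were 5.94 (adjusted p = 9.64e-112) and 2.31 (4.08e-17). Astrocyte markers summed to 1947 CPM in OPCs (1868 to 2153) against 716 CPM in committed precursors (634 to 886), and tanycyte markers to 146 CPM (94.1 to 303) against 33.6 CPM (18.1 to 62.2). Oligodendrocyte markers summed to 464 CPM in OPCs (378 to 598) against 1150 CPM (873 to 1338), and neuron markers to 299 CPM (225 to 385) against 117 CPM (71.8 to 214). None of these markers was at 0, and their part in the differences was not tested. Pcna (0.47 ± 0.28, adjusted p = 0.165) and Cdkn1b (0.12 ± 0.31, adjusted p = 0.790) were not called. Ccnd3 did not pass the filter and stood at 43.5 ± 13.5 against 14.4 ± 5.18 CPM, without overlap. The fit without the filter, in which 16.1% of 14330 genes were called, called it higher in OPCs (1.57, adjusted p = 1.01e-04), as it did Mki67 (3.11, 4.07e-05), Birc5 (3.04, 0.00263) and Top2a (36 against 0 UMIs, 1.31e-08), of which DESeq2 called only Mki67 (0.0223). Between committed precursors and oligodendrocytes, where 1683 of 6209 genes were called (27.1%), 828 higher in committed precursors (13.3%) and 855 lower (13.8%), Pcna (-0.43 ± 0.25, adjusted p = 0.133) and Cdkn1b (-0.87 ± 0.24, adjusted p = 0.00174) were the members tested and neither was called. Without the filter (17.7% of 14690 genes called), Cdkn1c was higher in committed precursors (2.04, adjusted p = 6.61e-06) and Ccnd1 lower (-1.77, 6.68e-04), and DESeq2 called Cdkn1c (0.0032) but not Ccnd1 (0.0584). The Cdkn1b difference passed the limit without mouse 34 (-1.17) and was -0.53 without mouse 3. OPC markers summed to 203 CPM in committed precursors (177 to 268) against 26.6 CPM in oligodendrocytes (17.7 to 51.4), and their part in these differences was not tested.

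Genes of DNA replication were among those higher in OPCs. Of 7 S phase genes tested between OPCs and oligodendrocytes, 4 were higher in OPCs and 0 lower, beside 15.2% higher and 12.8% lower among all genes. Of the 11 calls of list genes in this comparison, 9 were of genes that passed the filter through the higher group alone, all but Pttg1 and Cdkn2d, so the list counts support no direction. Without the filter, all 11 were called in the same direction. The S phase genes of largest difference were the replicative helicase subunits Mcm6 (27.9 ± 6.17 against 1.89 ± 1.02 CPM, log2 fold change 3.34 ± 0.45, adjusted p = 8.14e-11) and Mcm2 (31.7 ± 5.37 against 2.35 ± 1.18 CPM, 3.08 ± 0.41, adjusted p = 5.39e-11) and the DNA ligase Lig1 (49.9 ± 12.2 against 12.1 ± 2.52 CPM, 1.75 ± 0.27, adjusted p = 6.57e-09). Mcm6, Mcm2 and Lig1 passed the filter through OPCs alone. In the edgeR fit without it, their log2 fold changes were 3.21, 2.96 and 1.62 (adjusted p = 5.13e-10, 1.26e-10 and 1.18e-08). Of 4 G2/M genes tested, 2 were higher and 2 lower in OPCs. Hmgb2 (161 ± 43.7 against 24.5 ± 5.16 CPM) and the condensin subunit Smc2 (56.5 ± 10.4 against 16.8 ± 2.61 CPM) were higher in OPCs, with log2 fold changes of 2.19 (adjusted p = 5.93e-34) and 1.26 (1.56e-06) in the edgeR fit without the filter. Anln was at 3.29 ± 2.92 CPM in OPCs and 255 ± 35.1 CPM in oligodendrocytes (-6.59 in the same fit, 6.15e-131). Anln encodes anillin, an actin-binding protein of the cleavage furrow that is also known from myelin. Of 4 genes of the G1 machinery, Tfdp2 (-1.55, adjusted p = 4.21e-08) and Rbl2 (-1.32, 1.33e-05), both past the filter through oligodendrocytes alone, were lower in OPCs in the fit without it. Of 2 inhibitors, Cdkn2d was lower in OPCs (-1.30 ± 0.21, adjusted p = 5.96e-08). Markers of committed precursors summed to 1278 CPM in OPCs (968 to 1467) against 122 CPM in oligodendrocytes (105 to 143), astrocyte markers to 1947 CPM against 1232 CPM (1095 to 1584) and tanycyte markers to 146 CPM against 49.1 CPM (35.4 to 94.6), and their part in these differences was not tested.

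Between OPCs and committed precursors, Cdk4, a kinase partner of the D cyclins, was lower in OPCs (122 ± 26.0 against 315 ± 61.2 CPM, -1.40 ± 0.14, adjusted p = 5.52e-15), 1 of 2 genes of the G1 machinery tested. Rfc2, a clamp loader subunit, was higher in OPCs (62.5 ± 12.6 against 29.2 ± 5.44 CPM, 1.08 ± 0.28, adjusted p = 6.54e-04), 1 of 4 S phase genes. Its call was lost with DESeq2 (adjusted p = 0.183), without the filter (log2 fold change 0.99) and with thinned sums (0.86). None of 3 G2/M genes and not the 1 inhibitor tested was called there. By library, 14 of the 34 listed G2/M genes and 20 of the 29 S phase genes were above 0 in all 4 mice, and 7 and 3 were at 0 in every library and could not be tested. Between committed precursors and oligodendrocytes, 2 of 6 genes of the G1 machinery were higher in committed precursors (Cdk4 and E2f3) and 1 lower (Tfdp2), 1 of 3 S phase genes was lower (Rfc2), and of 4 G2/M genes 1 was higher (Hmgb2) and 2 lower (Anln and Pttg1).

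Around the ventricle, Ccnd2 separated tanycytes from astrocytes. Of 10081 genes, 2128 were called (21.1%), 1020 of them higher in tanycytes (10.1%) and 1108 lower (11.0%), and of 5 members tested 1 was called, Ccnd2, higher in tanycytes by 3.05 ± 0.14 (233 ± 17.8 against 28.2 ± 8.57 CPM, adjusted p = 1.02e-20). Ccnd1 (0.76 ± 0.21, adjusted p = 0.00248) and Pcna (0.50 ± 0.19, adjusted p = 0.0279) were higher in 4 of 4 mice with differences under the limit, and Ccnd3 (-0.17 ± 0.13) and Cdkn1b (0.18 ± 0.14) did not pass an adjusted p of 0.05. Between tanycytes and ependymal cells, 1743 of 8781 genes were called (19.8%), 591 of them higher in tanycytes (6.73%) and 1152 lower (13.1%). Cdkn1b was higher in tanycytes (54.6, 47.6, 71.6 and 53.8 against 40.4, 14.4, 21.1 and 33.7 CPM in mice 3, 4, 30 and 34) by 1.01 ± 0.21 (adjusted p = 7.16e-05). This call sits at the limit and was lost without mouse 4 (0.91), without mouse 30 (0.81), without cells of high doublet score (0.95) and in 1 fit over all types (0.97), with an adjusted p of at most 0.0106 in any alternative. Ccnd1 (-0.72 ± 0.20, adjusted p = 0.00294) and Ccnd2 (-0.35 ± 0.10, adjusted p = 0.00272) were lower in tanycytes in 4 of 4 mice and short of the limit. Against astrocytes, tanycytes had 3 of 10 S phase genes higher (Lig1, Mcm6 and Pola1), 1 of 5 G2/M genes higher (the condensin subunit Smc4), 2 higher (Cks1b and Rbl1) and 1 lower (E2f3) of 11 genes of the G1 machinery, and neither of 2 inhibitors called. Against ependymal cells, 1 of 8 S phase genes was lower (Mcm4), 1 of 6 G2/M genes was higher (Smc4) and 2 were lower (Kif11 and Nuf2), 1 of 9 genes of the G1 machinery was higher (Cks1b) and 1 lower (Cdk6), and of 2 inhibitors Cdkn2d was higher and Cdkn1a lower. Ependymal markers summed to 888 CPM in tanycytes (674 to 994) against 265 CPM in astrocytes (196 to 302). Endothelial markers summed to 126 CPM in tanycytes (119 to 138), against 30.1 CPM in astrocytes (26.7 to 38.0) and 33.0 CPM in ependymal cells (25.3 to 46.4). The part of these marker lists in the Ccnd2 and Cdkn1b differences was not tested.

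In the cells labelled endothelial, Ccnd1, Ccnd2, Cdkn1c and Pcna were higher than in astrocytes. These cells also carried markers of mural cells, the pericytes and smooth muscle cells of the vessel wall (Rgs5, Kcnj8, Abcc9 and Pdgfrb), which summed to 2377 CPM (range over mice 2134 to 2842, none at 0) against 95.5 CPM in astrocytes (92.5 to 103), tanycyte markers at 620 CPM (546 to 744) against 123 CPM (87.0 to 266), and OPC markers at 98.8 CPM (75.4 to 143) against 27.3 CPM (20.5 to 46.3). Endothelial and mural cells therefore cannot be told apart in these sums, and the part of these marker lists in the differences was not tested. Against astrocytes, 2664 of 7616 genes were called (35.0%), 1307 of them higher in endothelial cells (17.2%) and 1357 lower (17.8%), and of 6 members tested 4 were called, all higher. Cdkn1c, which passed the filter through endothelial cells alone (82 against 14 UMIs), was at 45.8 ± 10.5 against 3.64 ± 2.35 CPM, with a log2 fold change of 4.10 in the edgeR fit without the filter (adjusted p = 4.85e-30). Ccnd2 rose by 2.22 ± 0.18 (adjusted p = 4.28e-17). Ccnd1 and Pcna also passed the filter through endothelial cells alone. In the edgeR fit without it, Ccnd1 was higher by 1.995 (adjusted p = 6.09e-16) and Pcna by 1.32 (2.65e-07). With the filter, Ccnd1 was higher by 1.99 ± 0.24 (7.45e-11) and Pcna by 1.32 ± 0.24 (2.52e-06). Ccnd3 was higher by 0.53 ± 0.17 (adjusted p = 0.00435), under the limit, and Cdkn1b was not called (-0.38 ± 0.20, adjusted p = 0.104). Endothelial cells held a Mki67 or Top2a UMI in 2 of 1266 cells. All 3 inhibitors of the wider list that were tested, Cdkn1a, Cdkn2c and Cdkn2d, were called higher as well, as was Cdk6 among 6 genes of the G1 machinery, and none of 3 S phase and 3 G2/M genes was called.

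Microglia had 34 to 128 cells per mouse, and the SEs of their members (0.40 to 0.47) were the largest among the comparisons between cell types. Against astrocytes, 1805 of 4778 genes were called (37.8%), 851 higher in microglia (17.8%) and 954 lower (20%), and of 4 members tested Ccnd1 (2.67 ± 0.40, adjusted p = 8.39e-09) and Pcna (1.83 ± 0.43, adjusted p = 1.97e-04) were called higher in microglia. Ccnd1 passed the filter through microglia alone, and its log2 fold change was 2.35 in the edgeR fit without the filter (adjusted p = 8.72e-08). Pcna was at 82.4, 0, 71.0 and 59.0 CPM in mice 3, 4, 30 and 34, from 25 UMIs, and its call was lost with DESeq2 (adjusted p = 0.0801). Without mouse 3 and without mouse 30 it fell below the filter. Ccnd3 (-0.70 ± 0.43, adjusted p = 0.186) and Cdkn1b (-0.64 ± 0.47, adjusted p = 0.269) were not called. Of the lists, 1 of 4 genes of the G1 machinery (Myc), 1 of 2 S phase genes (Slbp), 0 of 2 G2/M genes and 1 of 1 inhibitors (Cdkn1a) were called higher, and none lower. Red blood cell markers summed to 1208 CPM in microglia (89.4 to 2421, none at 0) against 164 CPM in astrocytes (106 to 516), and OPC markers to 63.2 CPM (7.49 to 313) against 27.3 CPM, and their part in these differences was not tested.

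**Figure D5:**
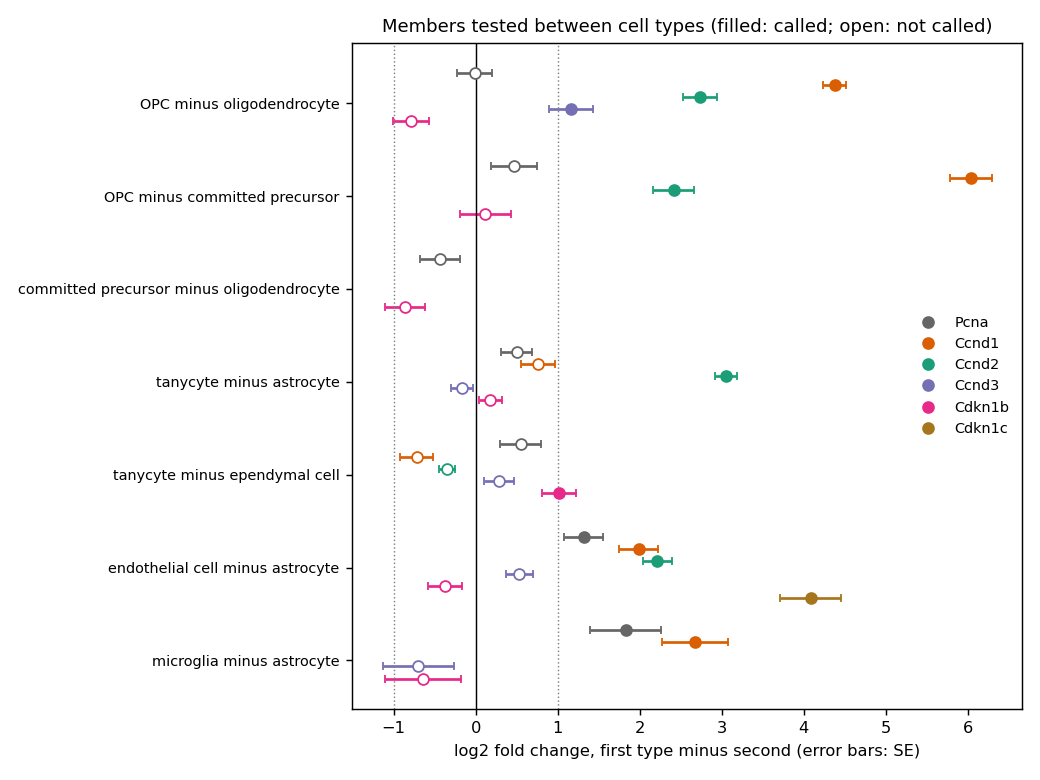
Log2 fold changes (x axis, bars of 1 SE) of the members that passed the filter on low counts in 7 comparisons between cell types (y axis, first type minus second); filled symbols were called and open ones were not, and dotted lines mark the limit of 1. Ccnd1 reaches 6.04 between OPCs and committed precursors, while Cdkn1b stays between -0.87 and 1.01.

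Genes with the most similar pattern were sought over 33 sums of mouse and cell type, among 6921 genes of at least 50 CPM in some type, by Pearson's r of log2 CPM. The sums share libraries and types, so r is a description. For Ccnd1 these were Inpp4b (r = 0.791), Ankrd11 (0.763) and Tacc2 (0.756). For Ccnd2 they were Cdc14a (0.881), Txn1 (0.864) and Tomm7 (0.853). Ccnd3 was most like Sh3bgrl (0.872), Lpp (0.856) and Nebl (0.810), Cdkn1b most like Pmvk (0.857), Ufd1l (0.855) and Bcap31 (0.853), and Cdkn1c most like Lamc1 (0.881), Prss23 (0.824) and Ptpn14 (0.822).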

How the data were processed

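Single-cell RNA-seq libraries (10x Chromium 3′ v2, 1 mouse each) of R50E mice 3, 4, 30 and 34 were analysed. The deposited counts are UMI counts per gene and cell, not normalized, made by the authors from the sequencing reads. The submitters' processing notes name Cell Ranger 1.2 and Seurat and the builds mm10, GRCm38 and GRCh38 without their roles. The authors also deposited a mitochondrial percent and a doublet score, a fraction, per cell, with cell type labels. For the doublet caller and the labelling method, no name was given in the sources used here. A deposited normalized matrix was not used, nor were 50172 cells of 12 other libraries in the table, and mice 12 and 37 are not analysed here.

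UMIs were summed per mouse and type (at least 20 cells) and tested with edgeR 4.0.16 in R 4.3.3 (quasi-likelihood test, TMM, filterByExpr, the mouse as a block since the types came from the same mice, Benjamini-Hochberg adjustment over all genes). A gene was called where its adjusted p lay under 0.05 and its change over 1 on the log2 scale. Positive and negative cells were compared in the 3 mice with at least 5 positive cells. Shares of cells were compared after thinning each cell to 500 UMIs, which left out 1 cell, and exact two-sided sign-flip tests over mice used scipy 1.17.1 in Python 3.11.15. The standard error was derived from the F statistic. On simulated counts, 88% of 4-fold changes were recovered between OPCs and oligodendrocytes, 44% between positive and negative OPCs (2-fold 8%), and 13% between positive and negative oligodendrocytes.

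The genes and lists were chosen with earlier results of these data known. Beyond the members, the text gives called counts per list, names the 3 called genes of largest change per list in the OPC comparisons and the 3 genes most like each of 5 members, and names other called list genes after their values were seen. Gene coordinates were matched by symbol to the GRCm38 annotation and promoters came from RefSeq. Alternatives were RLE normalization, DESeq2 1.42.0, no filter, no block, thinned sums, 1 fit over all types, cells without high doublet scores, other cell choices and leaving out each mouse. Comparing all mice with 2 or more positive cells, and shares by Mki67 alone, were chosen after seeing the data.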

Additional observations from a re-analysis of the deposited data

Results flagged for a closer look

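Of 46 sets of values over the 4 mice with at least 20 pooled UMIs, 4 had a single mouse far from the others by Dixon's criterion, where chance gives about 5% of sets. Pcna in committed precursors was at 95.7 CPM in mouse 30, from 20 UMIs, and at 24.1 to 27.2 CPM in the other mice. Ccnd1 in astrocytes was at 23.1 CPM in mouse 4, from 18 UMIs, beside 12.0 to 13.6 CPM in mice 3, 30 and 34. Cdkn1c in OPCs was at 38.2 CPM in mouse 30, from 9 UMIs, whereas mice 3, 4 and 34 lay between 12.3 and 13.8 CPM. The thinned share of oligodendrocytes with a Mki67 or Top2a UMI was 0.678% in mouse 30, from 6 UMIs, and 0.104% to 0.173% in the others.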

How the results depend on the processing

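Of 547 alternative log2 fold changes over 52 gene and comparison pairs, 521 kept direction and call, 15 lost the call, 3 gained it and 8 changed direction. None of the 8 belonged to a called gene. Between OPCs and oligodendrocytes, Pcna turned from -0.014 to 0.043 with no replicate block, 0.031 with thinned sums and 0.061 without mouse 34 (-0.17 to 0.061 leaving out each mouse). Between positive and negative OPCs, Ccnd1 turned to -0.64 without the filter, -0.14 with cells chosen by Top2a alone and -0.21 without mouse 3 (-0.21 to 0.22 leaving out each mouse), and Ccnd2 to -0.17 without the filter and -0.049 without mouse 3 (-0.049 to 0.89). In this comparison the fit without the filter gave lower values for all 4 members tested. Types of a mouse share its library, so the mouse block was in the main fit; without it, 1826 genes were called between OPCs and oligodendrocytes against 1820.

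Without the filter, genes called numbered 3054 (OPCs and oligodendrocytes), 2301 (OPCs and committed precursors), 2594 (committed precursors and oligodendrocytes), 2950 (microglia and astrocytes), 277 (positive and negative OPCs) and 144 (positive and negative oligodendrocytes). With thinned sums, which hold fewer UMIs, they numbered 1205, then 1065 (committed precursors and oligodendrocytes), 1367 (tanycytes and astrocytes), 1104 (tanycytes and ependymal cells), 1511 (endothelial cells and astrocytes), 312 (microglia), 3 (positive OPCs) and 0 (positive oligodendrocytes). With 1 fit over all types they were 2132 for OPCs and committed precursors and 2963 for microglia. For positive OPCs, DESeq2 called 45 and cells of at least 1000 UMIs gave 31. For positive oligodendrocytes, RLE gave 3, DESeq2 1, and leaving out mice 0 to 44.

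Members called without the filter were 7 (OPCs and oligodendrocytes), 6 (OPCs and committed precursors), 2 (committed precursors and oligodendrocytes), 2 (tanycytes and astrocytes) and 1 (positive OPCs). Between committed precursors and oligodendrocytes they were 1 with DESeq2 and with thinned sums, 2 with 1 fit over all types, and 0 to 1 leaving out mice. Between tanycytes and astrocytes they were 2 with 1 fit and 1 to 2 leaving out mice. Between tanycytes and ependymal cells they were 0 with 1 fit and without high doublet scores, and 0 to 1 leaving out mice. For microglia they were 1 with DESeq2, 0 with thinned sums and 1 to 2 leaving out mice. For positive OPCs they were 1 with DESeq2, with Mki67 alone and with Top2a alone, 0 with thinned sums, with cells of at least 1000 UMIs and with all mice of 2 or more positive cells, and 0 to 2 leaving out mice. The cause of these shifts was not tested.

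Mean shares of cells with a Mki67 or Top2a UMI were, at 1000 UMIs, 0.0813% of astrocytes, 0.153% of tanycytes, 3.23% of OPCs, 0.20% of committed precursors and 0.148% of endothelial cells, with 9620 cells left out. Not thinned, they were 0.103% of tanycytes, 0.368% of committed precursors, 0.591% of oligodendrocytes and 0.167% of endothelial cells. By at least 2 of 4 genes the oligodendrocyte share was 0. Depth limits Mki67, Top2a and Birc5 in particular, with 61, 43 and 33 UMIs in all.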
